A study of Mus musculus with 4 samples.

Results

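The genes described here encode 6 parts of the guanylin pathway of the gut lining: the peptides guanylin (Guca2a) and uroguanylin (Guca2b), their receptor guanylate cyclase C (Gucy2c), the cGMP-dependent protein kinase II (Prkg2), the chloride channel Cftr and the sodium/proton exchanger NHE3 (Slc9a3). They were chosen by name, with their levels in these data already known, and are 6 of the 32227 genes in the count tables. All 6 were measured in the 4 libraries, which came from the jejunum and the ileum of the same 2 wild-type C57BL/6J mice at postnatal day 6, before weaning. No treatment was given, so the comparison is between regions of the gut, with 2 libraries per region. The mice were labelled as 1 male and 1 female and were processed as batch 1 and batch 2, so mouse, labelled sex and batch cannot be told apart. The epithelium was released with EDTA and dispase and captured as single cells, and unique molecular identifiers (UMIs) were counted per gene and cell.

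Guanylin and uroguanylin are small peptides that enterocytes and other epithelial cells release into the lumen. Both bind guanylate cyclase C on the apical membrane, the same receptor that bacterial heat-stable enterotoxins use, and the receptor then makes cGMP inside the cell. The cGMP-dependent kinase phosphorylates Cftr, which lets chloride and with it water pass into the lumen, and NHE3, which absorbs sodium, is inhibited.

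The genes of the peptides lie next to each other on chromosome 4 in RefSeq's GRCm38.p6 annotation, with no other gene between them. Their levels in the ileum and the jejunum moved in opposite directions in these data, and for that reason the 250 bases before each start site are shown, 5′ to 3′ on the strand of the gene. The Guca2a sequence spans chr4:119637482-119637731 on the plus strand and the Guca2b sequence chr4:119658946-119659195 on the minus strand, both taken from RefSeq for GRCm38.p6. Capitals mark the matches, on either strand, to 3 motifs that were searched. The motif of GATA factors was searched as AGATAA, which in Guca2a stands in the reverse orientation, as TTATCT. Part of the HNF1 motif was searched as GTTAAT, and TTTATG was searched as the CDX motif.
Guca2a: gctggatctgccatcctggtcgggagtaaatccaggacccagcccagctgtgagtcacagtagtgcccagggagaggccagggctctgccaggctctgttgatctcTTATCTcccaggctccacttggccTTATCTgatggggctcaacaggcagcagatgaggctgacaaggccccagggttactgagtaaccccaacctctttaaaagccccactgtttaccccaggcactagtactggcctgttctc
Guca2b: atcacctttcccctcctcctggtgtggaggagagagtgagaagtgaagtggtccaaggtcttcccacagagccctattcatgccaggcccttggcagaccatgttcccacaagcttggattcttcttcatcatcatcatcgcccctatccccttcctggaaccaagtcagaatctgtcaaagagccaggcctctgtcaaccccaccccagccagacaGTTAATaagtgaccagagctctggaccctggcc
The Guca2a sequence held 2 matches to AGATAA and the Guca2b sequence held 0. The Guca2b sequence held 1 match to GTTAAT and the Guca2a sequence held 0, and neither held TTTATG. No matches overlapped. Of 32851 mouse promoter sequences cut to the same length, 9.99% held AGATAA, 6.43% held GTTAAT and 10.8% held TTTATG. A match describes the letters in these windows alone. Promoters of 4 of the 6 genes were in the table, and those of Cftr and Slc9a3 held none of these motifs.

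After the study's filters on cells, 5724 to 9000 cells remained per library, 30538 in all. The ileal libraries were deeper, with a median of 12056 and 10918 UMIs per cell against 4688 and 5882 in the jejunum, and had a lower median mitochondrial share, 3.61% and 3.74% against 6.38% and 9.94%. Each cell was therefore thinned to 2000 UMIs before any class was set or level computed. Xist and Eif2s3y went against the labelled sex in all 4 libraries, and sex entered no value below. Of the cell barcodes, 2 occurred in more than 1 library. Among the enterocyte-marker cells the 9 goblet markers summed to 186 to 220 CPM (the UMIs of a gene divided by all UMIs summed and multiplied by 1000000) in the ileum and 82.5 to 89.4 in the jejunum, and the 12 immune markers to 217 to 258 and 76.1 to 125 CPM. The part of depth, mitochondrial share and these markers in the region differences was not tested.

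Cells were placed in 3 classes by how many fixed marker genes they showed. Enterocyte-marker cells had at least 7 of the enterocyte markers and numbered 5369 and 6879 in the ileum (mouse 1 and mouse 2), with 6895 and 4351 jejunal ones. Stem-marker cells, with at least 2 stem markers such as Lgr5 and Olfm4 and few cycling or enterocyte markers, were scarce, 89 and 106 ileal ones and 103 and 71 jejunal ones. Cycling cells, with at least 4 proliferation markers, numbered 287 and 232 (ileum) and 255 and 255 (jejunum). The classes are ranges of marker counts and not separate clusters: 44 of the 89 stem-marker cells of ileum mouse 1 and 15 to 25 of those in each other library had exactly the minimum number of markers. The levels below are UMIs summed over the cells of a class and library, in CPM. Because the genes were chosen from these levels, region and class differences of the 6 genes are given as descriptions, with no test.

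Guca2a was the most regional of the peptide genes by size of change. In enterocyte-marker cells it reached 2243 CPM in ileum mouse 1 and 1842 CPM in ileum mouse 2, against 239 CPM in jejunum mouse 1 and 52.4 CPM in jejunum mouse 2. The regions did not overlap. Within mouse 1 the ileal level was 9.40-fold and within mouse 2 35.2-fold the jejunal level. The fitted log2 fold change, ileum over jejunum, was 3.64 ± 0.63 (SE, n = 2 per region), 5.05 without jejunum mouse 1 and 2.96 without jejunum mouse 2. At 2000 UMIs per cell, 97.3% (95% exact binomial interval 96.8 to 97.7) and 94.0% (93.4 to 94.5) of the ileal cells held a Guca2a UMI, against 33.0% (31.9 to 34.1) and 9.33% (8.48 to 10.2) of the jejunal cells. Immune-marker cells, which should lack the gene, held a UMI in 3 of 8 cells of ileum mouse 1, 1 of 9 of ileum mouse 2, 1 of 16 of jejunum mouse 1 and 0 of 10 of jejunum mouse 2 at the same depth, the last of which allows a share of up to 30%. A Poisson spread of the jejunal UMIs over the same cells would give 37.9% and 9.95%, slightly above the shares observed, so the low jejunal level was not carried by a few cells with many UMIs. In unthinned counts the immune-marker cells of jejunum mouse 2 held 0 Guca2a UMIs, with an exact Poisson interval up to 55.5 CPM. The 52.4 CPM of that library lay within it, so the 35.2-fold rests on a level not told from background.

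Guca2b had the opposite order between regions. Its level in enterocyte-marker cells was 745 and 717 CPM in the ileum and 1100 and 1356 CPM in the jejunum (mouse 1 and mouse 2). The regions did not overlap, and the jejunal level was 1.48-fold the ileal one in mouse 1 and 1.89-fold in mouse 2. The fitted log2 fold change was -0.94 ± 0.19. As a result the ratio of Guca2a to Guca2b UMIs, which needs no scaling between libraries, was 3.01 and 2.57 for the ileum, against 0.217 and 0.0386 for the jejunum. Cells with UMIs of both genes were about as frequent as the product of their shares, from 1.01 to 1.05 times in the 4 libraries. Guca2a was found in 97.3% and 94.0% of the ileal cells and Guca2b in 83.0% and 86.0% of the jejunal cells. Such shares leave this value little room above 1, so nothing is read from it.

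The receptor and the kinase differed less. Gucy2c stood at 324 and 340 CPM in ileal and at 257 and 228 CPM in jejunal enterocyte-marker cells. Prkg2 stood at 493 and 483 CPM in the ileum and at 386 and 312 CPM in the jejunum. Both were higher in both ileal libraries than in either jejunal one, by a log2 fold change of 0.26 ± 0.15 for Gucy2c and 0.30 ± 0.16 for Prkg2. The size depended on the scaling: with library totals in place of TMM factors, the median of all genes tested in these cells moved by 0.19 on the log2 scale, and Gucy2c came to 0.45 and Prkg2 to 0.48.

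The transport genes had lower CPM in the ileum, where their levels could not be told from background. Slc9a3 was at 12.4 and 11.05 CPM in ileal and at 62.9 and 96.4 CPM in jejunal enterocyte-marker cells, 5.08-fold higher in the jejunum of mouse 1 and 8.73-fold in mouse 2. Its log2 fold change of -2.96 ± 0.26 was of the opposite sign to that of Guca2a. The ileal Slc9a3 levels lay within the intervals of the immune-marker cells of their libraries (0 UMIs, up to 52.7 and 96.1 CPM). The folds of Slc9a3 therefore rest on ileal levels that could not be told from background. Cftr was low in these cells, at 20.7 and 37.0 CPM in the ileum and 44.7 and 47.9 CPM in the jejunum. Its log2 fold change was -0.86 ± 0.29, which came to -0.47 without ileum mouse 1 and to -1.38 without ileum mouse 2. Each Cftr level lay within the interval of the immune-marker cells of its library. These were 15.6 to 146 and up to 96.1 CPM in the ileum, and 0.247 to 54.4 and up to 55.5 CPM in the jejunum. Cftr in enterocyte-marker cells therefore could not be told from background. For all 6 genes the ileal and jejunal libraries did not overlap in enterocyte-marker cells, 3 higher and 3 lower in the ileum. Of all 14622 genes tested there 65.3% did not overlap either, 45.1% higher and 20.2% lower in the ileum, so nothing is read from that count.

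**Figure D1:**
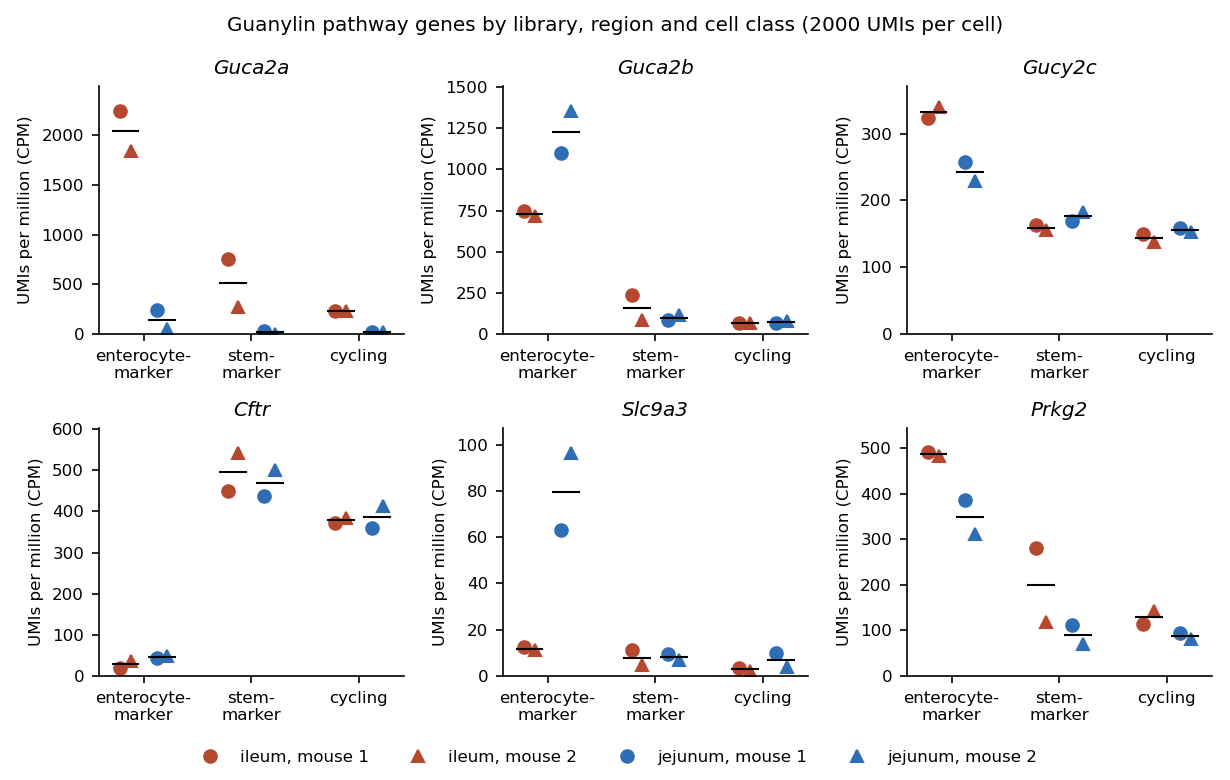
Level of each of the 6 genes (CPM, y axis from 0) in enterocyte-marker, stem-marker and cycling cells (x axis), with 1 point per library (circles, mouse 1; triangles, mouse 2; red, ileum; blue, jejunum) and a line at the mean of each region. Guca2a is high in ileal and Guca2b and Slc9a3 in jejunal enterocyte-marker cells, while Cftr lies between 361 and 542 CPM in the crypt classes and between 20.7 and 47.9 CPM in enterocyte-marker cells.

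The crypt classes showed a different set of genes. Cftr was the one gene of the 6 with its highest levels there: 449 and 542 CPM in ileal and 437 and 500 CPM in jejunal stem-marker cells. Cycling cells held 373 and 384 CPM in the ileum and 361 and 414 CPM in the jejunum. These levels were 8.08- to 21.7-fold the enterocyte-marker level of the same library, which could not be told from background. The crypt levels were about as high in either region, with log2 fold changes of 0.07 ± 0.27 in stem-marker and -0.07 ± 0.17 in cycling cells. Over the alternatives these ran from -0.15 to 0.24 and from -0.16 to 0.16, so neither had a stable sign. At 2000 UMIs, 45.9% to 57.7% of the crypt-class cells held a Cftr UMI, against 3.97% to 8.76% of the enterocyte-marker cells. Of the immune-marker cells 1 of 17 held one in the ileum and 0 of 26 in the jejunum, which allows a share of up to 11.5%. All 8 crypt levels (4 libraries, 2 classes) lay above the exact Poisson interval of the immune-marker cells of the same library, which held at most 57.1 CPM (4 UMIs in ileum mouse 1, interval 15.6 to 146 CPM, in unthinned counts and for counting error only).

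Gucy2c was lower in the crypt classes than in enterocyte-marker cells, but less so than the peptide genes. Stem-marker cells held 163 and 156 CPM in the ileum and 170 and 183 CPM in the jejunum, and cycling cells 150 and 138 CPM against 159 and 153 CPM. The level in cycling cells was 40.5% to 66.9% of that in enterocyte-marker cells of the same library. The fitted log2 fold changes between regions were -0.16 ± 0.30 in stem-marker and -0.14 ± 0.20 in cycling cells, within their SE. With another draw of the thinning they turned to 0.17 and 0.03, and with cells under 10% mitochondrial UMIs the cycling one turned to 0.05. Of the 8 crypt levels, 5 lay above the interval of the immune-marker cells of the same library and 3 within it. Those within were both classes of ileum mouse 1, where immune-marker cells held 157 CPM (11 UMIs, 78.4 to 281 CPM), and the cycling cells of ileum mouse 2, where they held 26.0 CPM (1 UMI, 0.659 to 145 CPM). In the jejunum, where they held 19.5 and 30.1 CPM (2 UMIs each), both classes lay above in both mice.

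Guca2a in the crypt classes could not be told from background. None of its 8 crypt levels lay above the interval of the immune-marker cells of the same library, 7 lying within it and 1 below. In ileal cycling cells it stood at 233 CPM in both mice. The immune-marker cells held 700 CPM in ileum mouse 1 (49 UMIs, 518 to 925 CPM). In ileum mouse 2 they held 130 CPM (5 UMIs, 42.3 to 304 CPM). After thinning, a Guca2a UMI was found in 3 of 8 of these cells in mouse 1 and 1 of 9 in mouse 2. The ileal cycling level of mouse 1 lay below the interval of its library. Whether the immune-marker levels reflect background or doublets was not tested, so no difference in background between the ileal libraries is read from them. Stem-marker cells held 758 and 269 CPM in the ileum, within the immune-marker intervals, and 34.0 CPM in jejunum mouse 1. In jejunal cycling cells Guca2a stood at 15.7 and 17.6 CPM, from 8 and 9 UMIs, beside 19.5 CPM in the immune-marker cells of mouse 1 (2 UMIs, 2.37 to 70.6 CPM) and 0 UMIs in those of mouse 2 (up to 55.5 CPM). In jejunum mouse 2 no UMI was found among 71 stem-marker cells, which allows up to 21.1 CPM (3 counts in that library), so the ileal level of mouse 2 was at least 12.7-fold higher. The ratio of Guca2a to Guca2b UMIs in the ileum was 3.21 and 3.17 in stem-marker and 3.44 and 3.48 in cycling cells, beside 3.01 and 2.57 in enterocyte-marker cells. In immune-marker cells it was 2.72 in mouse 1, and mouse 2 had 5 and 1 UMIs. The fitted region differences, 4.61 ± 0.59 in stem-marker and 3.75 ± 0.28 in cycling cells, are therefore not read as a difference in crypt expression. That of the stem-marker cells also rests on a library without a Guca2a UMI, so its size depends on the prior count of the fit.

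Of the 8 crypt levels of Guca2b 1 lay above, 6 within and 1 below the interval of the immune-marker cells of the same library. It had 67.9 and 66.8 CPM in ileal and 66.7 and 76.5 CPM in jejunal cycling cells. Stem-marker cells held 236 and 84.9 CPM in the ileum and 82.5 and 113 CPM in the jejunum, so the regions overlapped. The level above was that of 113 CPM in jejunum mouse 2, from 16 UMIs, where the immune-marker cells held 30.1 CPM (2 UMIs, 3.64 to 108.6 CPM). Prkg2 in cycling cells was 115 and 142 CPM in the ileum and 94.1 and 80.4 CPM in the jejunum. In stem-marker cells Prkg2 was 281 and 118 CPM in the ileum and 112 and 70.4 CPM in the jejunum, a log2 fold change of 1.04 ± 0.40 that came to 0.33 without ileum mouse 1 and to 1.55 without ileum mouse 2. Of its 8 crypt levels, 5 lay above the interval of the immune-marker cells of the same library (all 4 jejunal ones and the stem-marker cells of ileum mouse 1) and 3 within it. Slc9a3 had 1 to 5 UMIs per library in the crypt classes and did not pass the count filter there, so 5 of the 6 genes had a fitted value in those classes. Of these 5 genes, Guca2a and Prkg2 were higher and Gucy2c lower in both ileal libraries than in either jejunal one, in stem-marker as in cycling cells, in the draw of the thinning used throughout. Of all genes tested 40.8% did not overlap in stem-marker cells (21.4% higher and 19.4% lower in the ileum) and 40.3% in cycling cells (22.3% and 18%), and nothing is read from these counts.

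For scale, 8 enterocyte genes outside the markers of the cell classes were added after the data had been seen: Apoa4, Apoc3, Prap1, Krt20, Mep1a, Mep1b, Rbp2 and Mamdc4. Apoa4 is also among the villus genes used below. The medians that follow are over all 8 genes. Their median level in cycling cells was 11.3% and 13.5% of that in enterocyte-marker cells in the ileum (mouse 1 and mouse 2) and 12.2% and 10.6% in the jejunum. Guca2a stood at 10.4% and 12.6% in the ileum and at 6.57% and 33.7% in the jejunum, where its level rests on 8 and 9 UMIs. Guca2b stood at 9.12% and 9.32% in the ileum and at 6.06% and 5.64% in the jejunum. Prkg2 stood at 23.3% to 29.4% and Gucy2c at 40.5% to 66.9% in the 4 libraries. Prkg2, Gucy2c and Cftr lay above the median of the enterocyte genes in all 4 libraries, and Guca2b below it. Guca2a lay below it in 3 libraries and above it in jejunum mouse 2.

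**Figure D2:**
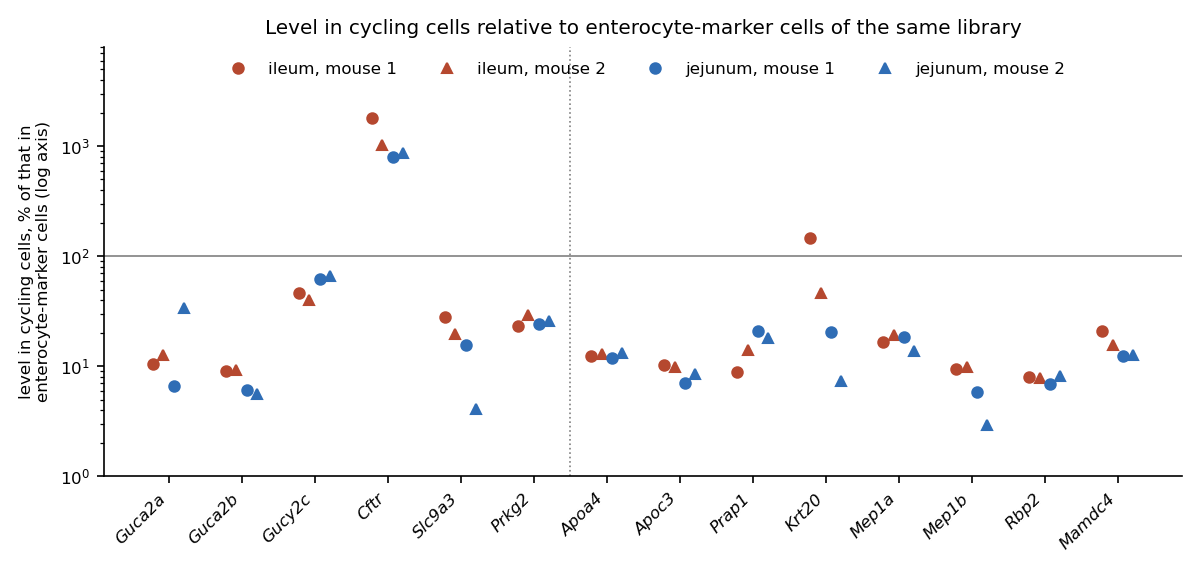
Level in cycling cells as a percent of the level in enterocyte-marker cells of the same library (log axis), for the 6 genes (left of the dotted line) and 8 other enterocyte genes (right), with 1 point per library. Cftr lies far above the line at 100%, Gucy2c between 40.5% and 66.9%, and ileal Guca2a and Guca2b among the enterocyte genes; Krt20 is high in the ileum, where its enterocyte-marker level was 8.29 and 9.23 CPM.

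**Figure D3:**
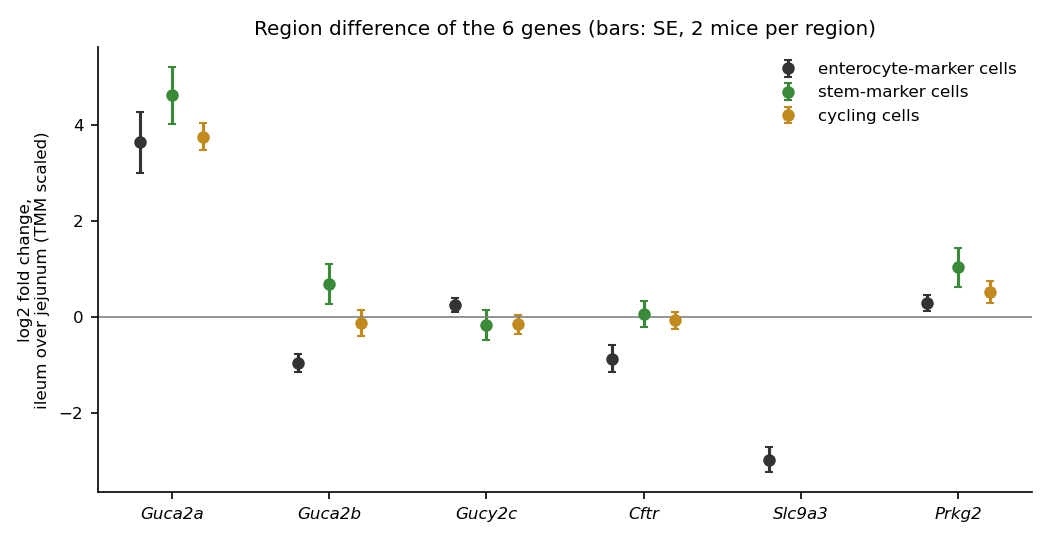
Fitted log2 fold change, ileum over jejunum, with its SE (bars; 2 libraries per region), for each of the 6 genes in enterocyte-marker, stem-marker and cycling cells; Slc9a3 has no fitted value in the crypt classes. Guca2a is above 3 in all classes, Slc9a3 near -3, and Guca2b and Cftr are below 0 in enterocyte-marker cells.

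Over the 6 combinations of region and class, the order of levels differed by gene. Guca2a was highest in ileal enterocyte-marker cells, followed without overlap by ileal stem-marker and then ileal cycling cells, and the range of the last overlapped that of jejunal enterocyte-marker cells. Guca2b was highest in jejunal and then in ileal enterocyte-marker cells, which did not overlap, and the ileal and jejunal stem-marker cells below them did. Gucy2c and Prkg2 were highest in ileal and then in jejunal enterocyte-marker cells, with no overlap. For Cftr both stem-marker groups led and overlapped, both cycling groups followed and overlapped, and jejunal and then ileal enterocyte-marker cells came last. For Slc9a3 jejunal enterocyte-marker cells led, and the means of the other groups lay between 2.82 and 11.7 CPM.

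The genes whose levels most resembled those of each gene over the 12 sums of library and class are a description of these libraries, with no p. The closest to Guca2a among 8631 genes were ccdc198 (Pearson's r = 0.98), Bex4 (0.97) and Sprr2a2 (0.97). The last belongs to a family of near-identical genes between which reads can be split. Those closest to Guca2b were Selenop (1.00), H2-D1 (0.99) and Mogat2 (0.99), and those closest to Gucy2c were Gsto1 (0.99), Slc39a1 (0.98) and Hspa5 (0.97). Cftr went with Esrp1, Sox9 and Slc12a2 (0.99 each). Sox9, a transcription factor of crypt cells, is among the markers that set the stem-marker class, and Slc12a2 encodes the basolateral transporter that loads cells with chloride. Slc9a3 went with Clint1 (0.96), Sema3b (0.95) and Ndufa1 (0.94), and Prkg2 with Gng12 (0.99), Ctsh (0.98) and Smpdl3a (0.98).

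The position of enterocytes along the villus was not used to choose the genes, so it was tested. Within each library the enterocyte-marker cells were split into 3 equal groups (lower, middle and upper) by 5 genes known to rise toward the villus tip (Ada, Nt5e, Slc28a2, Creb3l3 and Apoa4). Ada (0.559 to 1.74 CPM) and Nt5e (9.36 to 27.1 CPM) had UMIs in the upper group alone, so most cells were ordered by Slc28a2, Creb3l3 and Apoa4. The groups stand in for position, which was not measured. The upper group was compared with the lower group within libraries, with adjustment over all genes tested. Of 12462 genes, 12.9% passed, 7.01% higher and 5.89% lower in the upper group. Of the 6 genes, 1 was higher and 1 was lower.

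Cftr fell toward the upper group. Its level was 27.7 CPM in the lower and 13.1 CPM in the upper group in ileum mouse 1, and 43.0 and 31.8 CPM in ileum mouse 2. In the jejunum it was 55.2 and 35.0 CPM in mouse 1 and 50.7 and 42.4 CPM in mouse 2. It was lower in the upper group of all 4 libraries, with a log2 fold change of -0.49 ± 0.11 and an adjusted p of 0.0071 by edgeR's quasi-likelihood test. The adjusted p was 0.058 by DESeq2's Wald test and 0.055 in edgeR with cells under 10% mitochondrial UMIs, and 0.00022 to 0.040 in edgeR under the other alternatives. Over all enterocyte-marker cells Cftr lay within the intervals of the immune-marker cells. Whether the fall is one of expression or of background was not tested.

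Guca2b rose toward the upper group, from 695 to 789 CPM and from 690 to 735 CPM in the ileum of mouse 1 and mouse 2, and from 971 to 1183 CPM and from 1191 to 1473 CPM in the jejunum. The change was upward in all 4 libraries, with a log2 fold change of 0.29 ± 0.06 (edgeR adjusted p = 0.0038). With villus groups set by the share of ribosomal protein UMIs, the log2 fold change was 0.10 ± 0.14 (edgeR adjusted p = 0.57), and under the other alternatives the adjusted p was at most 0.033.

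The remaining 4 genes did not pass. The log2 fold change was 0.23 ± 0.09 for Slc9a3 (edgeR adjusted p = 0.12), upward in all 4 libraries, but it passed at 0.32 (adjusted p = 0.014) with sums of unthinned counts and at 0.33 (adjusted p = 0.046) with another draw of the thinning. For Guca2a it was 0.12 ± 0.06 (edgeR adjusted p = 0.23), and -0.31 ± 0.11 (adjusted p = 0.029) with villus groups by ribosomal share. Gucy2c (0.05 ± 0.06, edgeR adjusted p = 0.69) and Prkg2 (0.05 ± 0.06, adjusted p = 0.64) turned to -0.026 and -0.021 with library totals in place of TMM, and passed at 0.22 (adjusted p = 0.045) and 0.37 (adjusted p = 0.0060) with villus groups by ribosomal share. Whether the difference between villus groups itself differed between regions was tested as an interaction, in which 0 of the 6 genes passed (edgeR adjusted p from 0.49 to 0.90), against 2.65% of all genes (1.86% more positive and 0.786% more negative in the ileum). At an unadjusted p under 0.05 the count was also 0, and DESeq2 called 0. With villus groups by ribosomal share 1 gene, Guca2b, passed.

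**Figure D4:**
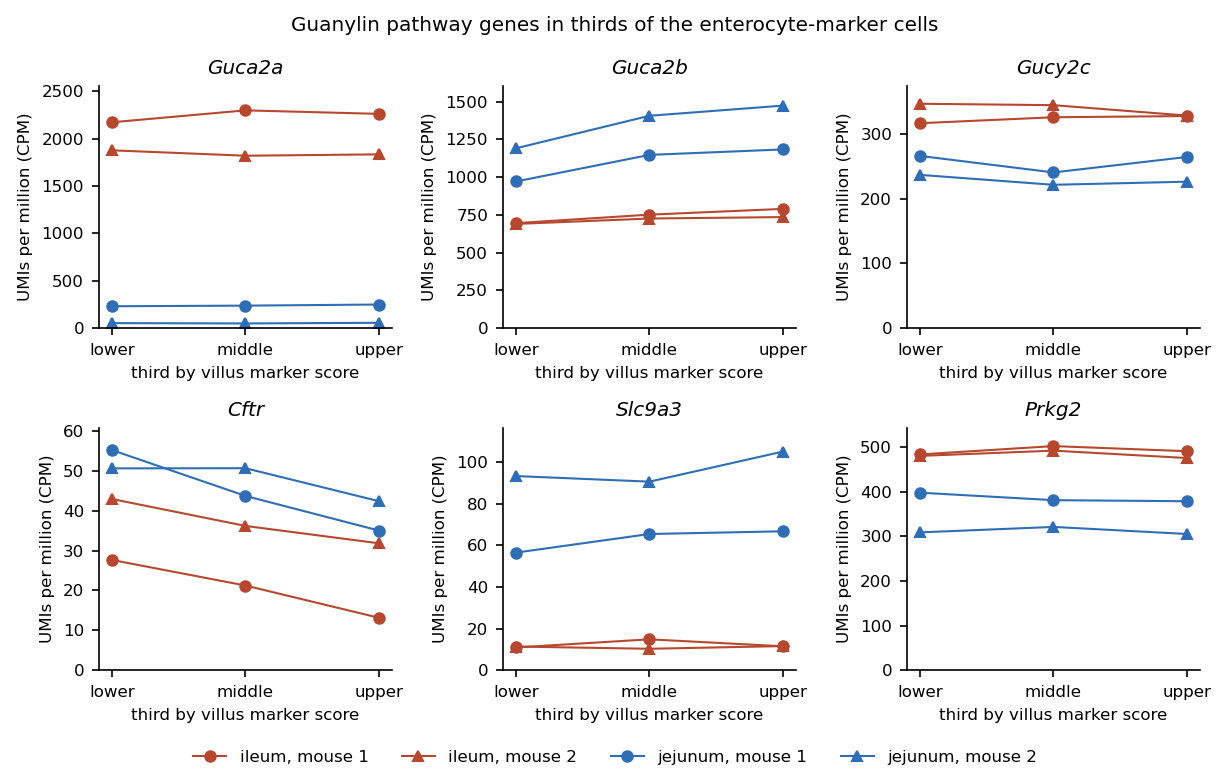
Level of each gene (CPM, y axis from 0) in the lower, middle and upper group of the enterocyte-marker cells by villus marker score, with 1 line per library (circles, mouse 1; triangles, mouse 2; red, ileum; blue, jejunum). Cftr is lower and Guca2b higher in the upper than in the lower group of all 4 libraries.

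Around these genes, 95 others of cGMP signaling, the apical scaffold, chloride and bicarbonate secretion, sodium and water absorption, and secretagogue receptors with cAMP signaling were tested for region. In enterocyte-marker cells 12 of the 74 tested passed, 2 higher and 10 lower in the ileum, or 16.2%, against 10.9% of all 14622 genes (5.34% higher and 5.53% lower). Their median log2 fold change was -0.10, against 0.0034 over all genes. No cGMP signaling gene (0 of 15) and no scaffold gene (0 of 10) passed in edgeR. At an unadjusted p under 0.05 there were 2 and 1, DESeq2 called 0 and 1, and edgeR with the mouse as a block called 1 and 1. In secretion 1 of 17 was higher and 4 were lower, in absorption 0 of 15 were higher and 4 were lower, and among secretagogue receptors and cAMP genes 1 of 17 was higher and 2 were lower.

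The absorption genes that fell in the ileum included 3 aquaporins. Aqp8, a water channel, had 0.373 and 3.34 CPM in the ileum against 34.8 and 79.2 CPM in the jejunum, with a log2 fold change of -5.04 ± 0.75 (edgeR adjusted p = 0.014). Aqp7, which also passes glycerol, changed by -1.99 ± 0.44 (edgeR adjusted p = 0.038), and Aqp4 by -1.56 ± 0.25 (adjusted p = 0.017). Adora2b, a Gs-coupled adenosine receptor, had 6.71 and 13.9 CPM in the ileum against 62.7 and 50.4 CPM in the jejunum (-2.62 ± 0.34, edgeR adjusted p = 0.010).

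In secretion, Stk39, the kinase SPAK that acts on chloride cotransporters, was lower in the ileum (-1.87 ± 0.20, edgeR adjusted p = 0.0068). Slc12a2, the sodium/potassium/chloride cotransporter, had 11.4 and 11.2 CPM in the ileum against 20.3 and 21.8 CPM in the jejunum (-1.09 ± 0.18, edgeR adjusted p = 0.016). Ileal levels of Slc12a2, Stk39, Aqp8, Aqp7, Aqp4 and Adora2b lay below those of Cftr in these cells (20.7 and 37.0 CPM). In no comparison were the list genes set beside immune-marker cells. Whether these region differences are of expression or of background was not tested. Slc4a4, a basolateral sodium bicarbonate cotransporter, was higher in the ileum at 53.6 and 49.7 CPM against 26.0 and 19.8 CPM (0.98 ± 0.17, edgeR adjusted p = 0.020). Prkar2a, a regulatory subunit of protein kinase A, was also higher (0.90 ± 0.14, adjusted p = 0.015). The scaffold genes Pdzk1 (-0.19 ± 0.14, edgeR adjusted p = 0.41) and Slc9a3r1 (-0.05 ± 0.16, adjusted p = 0.87), whose products bind NHE3 and Cftr, did not pass. Nor did Pde5a, a cGMP phosphodiesterase (0.15 ± 0.16, adjusted p = 0.56), the potassium channel Kcnq1 (0.03 ± 0.20, adjusted p = 0.94), or the chloride/bicarbonate exchanger Slc26a3 (-0.57 ± 0.22, adjusted p = 0.14). With the mouse as a block, Slc26a3 passed (adjusted p = 0.013), as did 24 of the 74 genes, against 22.7% of all genes. Without ileum mouse 1 none of 77 genes passed in edgeR, with 19 at an unadjusted p under 0.05 (DESeq2 was not run there), and without ileum mouse 2 only Adora2b, Aqp7, Aqp8 and Stk39 of 75 genes did.

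In the crypt classes no gene of these lists passed in edgeR at the settings used throughout. In stem-marker cells 0 of 40 passed, with 2 at an unadjusted p under 0.05 and 0 by DESeq2, and 0.737% of all 4477 genes passed there (0.38% higher and 0.357% lower in the ileum, and 2.39% with the mouse as a block). In cycling cells 0 of 47 passed, with 8 at an unadjusted p under 0.05 and 0 by DESeq2, against 1.15% of all 8007 genes (0.425% higher and 0.724% lower). With the mouse as a block, 2 passed in cycling cells, Pde4d and Prkar2a, named here after their values were seen, against 2.8% of all genes. Under other alternatives at most 1 gene passed in a class, each named after its values were seen. These were Chrm3 in stem-marker and Stk39 in cycling cells with unthinned counts, and Pde4d in cycling cells with another draw of the thinning, with library totals, with cells under 10% mitochondrial UMIs and without the count filter. Slc12a2 and Kcnq1, which supply the driving force for chloride exit through Cftr, had high levels in the crypt as Cftr did. In stem-marker cells Slc12a2 had 500 and 590 CPM in the ileum against 665 and 570 CPM in the jejunum, and Kcnq1 at 444 and 585 CPM against 680 and 528 CPM.

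Between villus groups, 17 of 71 genes of the lists passed, 8 higher and 9 lower in the upper group, or 23.9%, against 12.9% of all genes. Secretion genes had a median log2 fold change of -0.27, against 0.0038 over all genes. Of 15, 0 were higher and 4 lower in edgeR, and 0 passed by DESeq2. Among the 4 lower ones were Stk39 (-0.52 ± 0.14, edgeR adjusted p = 0.018), the anion exchanger Slc26a6 (-0.43 ± 0.10, adjusted p = 0.011) and Slc26a3 (-0.27 ± 0.07, adjusted p = 0.016). Slc12a2 (-0.31 ± 0.16, edgeR adjusted p = 0.23) and Kcnq1 (-0.45 ± 0.17, adjusted p = 0.090) did not pass, nor did Pde5a (0.08 ± 0.08, adjusted p = 0.59). The scaffold had 3 higher and 1 lower of 10. Pdzk1 (0.47 ± 0.06, edgeR adjusted p = 0.000147), Slc9a3r1 (0.29 ± 0.06, adjusted p = 0.0035) and Chp2, a calcineurin-like cofactor of sodium/proton exchangers (0.68 ± 0.13, adjusted p = 0.0018), were higher. Myo1a, a brush border myosin (-0.30 ± 0.07, edgeR adjusted p = 0.012), was lower, and did not pass by DESeq2. In the other lists Scnn1a, a subunit of the epithelial sodium channel (0.45 ± 0.09, edgeR adjusted p = 0.0033), Aqp7 (0.59 ± 0.14, adjusted p = 0.012) and Adora2b (0.55 ± 0.14, adjusted p = 0.013) were higher and Prkar2a (-0.31 ± 0.06, adjusted p = 0.0035) was lower. By DESeq2 7 of the 71 passed, against 4.88% of all genes. Without ileum mouse 1 it was 11 of 71, against 7.74%, and without ileum mouse 2 5 of 70 (Chp2, Pdzk1, Prkar2a, Scnn1a and Pde3a, the last named after its values were seen), against 5.41%. With villus groups by ribosomal share 34 of 72 passed, against 41.7% of all genes, and Slc9a3r1 was not among the 34.

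**Figure D5:**
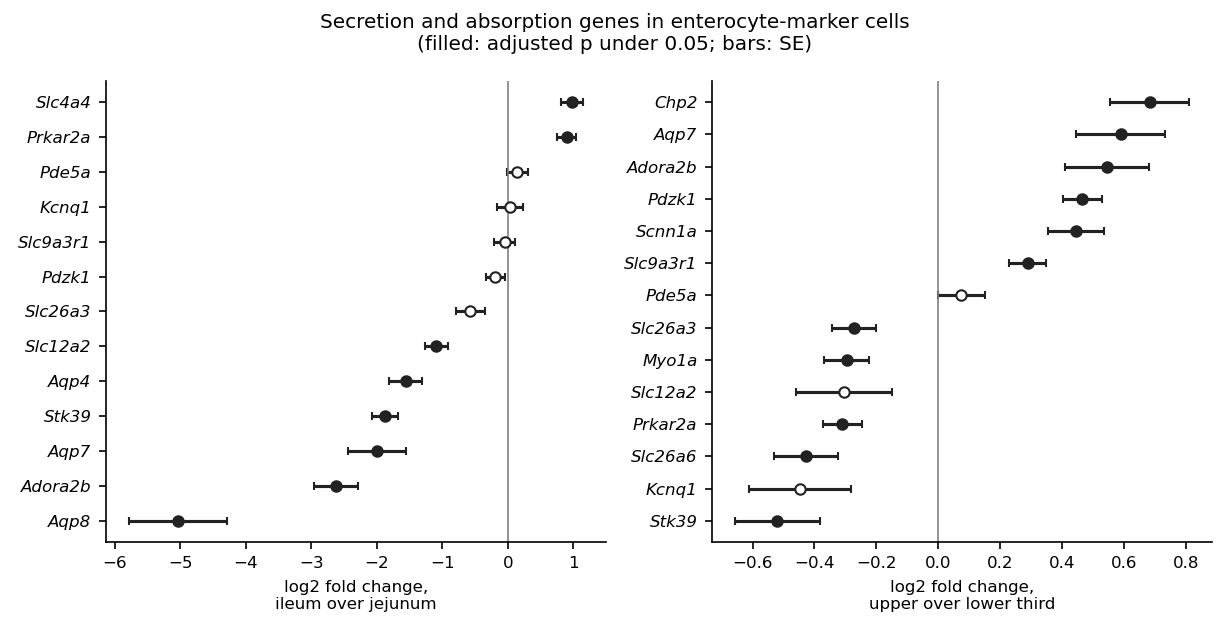
Log2 fold change with its SE (bars) of named genes of secretion, absorption and their signaling in enterocyte-marker cells, ileum over jejunum (left) and upper over lower group (right); filled points have an edgeR adjusted p under 0.05 over all genes tested and open points do not. Aqp8 and Adora2b lie farthest to the left by region, and Pdzk1 and Chp2 are above 0.4 between villus groups.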

How the data were processed

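Single cells of the jejunum and ileum of 2 mice at postnatal day 6 were read from 4 libraries. The authors aligned and counted the reads with PIPseeker at sensitivity level 3 and deposited UMI counts per gene and cell; the genome build in the submitters' processing notes is GRCm39, and the gene annotation is not given in the sources used here. The study's filters were applied (genes in at least 3 cells, 1000 to 6000 genes per cell, under 20% mitochondrial UMIs). The 36202 called cells held 57951874 to 131400239 UMIs per library. Cells were thinned to 2000 UMIs, and 1411 kept cells below that were left out. Classes came from counts of distinct markers: cycling cells had at least 4 cycling and at most 5 enterocyte markers, stem-marker cells at least 2 stem, at most 3 cycling and at most 5 enterocyte markers, and enterocyte-marker cells at least 7 enterocyte and at most 1 cycling and 1 stem marker. Cells with at least 3 markers of another type went to that type, and the rest were unassigned. These limits were set after the data were seen, and the genes and lists were chosen with earlier results of these data known. No doublet caller was run; leaving out the 6% of cells with the most UMIs was an alternative.

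UMIs were summed per library and class or villus group, and edgeR 4.0.16 (R 4.3.3; filterByExpr, TMM, quasi-likelihood test, Benjamini-Hochberg adjustment over all genes tested, threshold 0.05) was fitted. All tests were two-sided. Region fits had region alone, and villus fits had library and group, with region by group for the interaction. SE is the log2 fold change divided by the root of F. Alternatives were DESeq2 1.42.0, RLE factors, library totals, unthinned counts, no count filter, another draw, stricter mitochondrial and marker limits, villus groups by ribosomal share (84 genes), leaving out each library, and the mouse as a replicate block. Same-numbered libraries came from 1 mouse, which pairs them; their deviations from the region means correlated at 0.296, 0.142 and 0.155 over genes in enterocyte-marker, stem-marker and cycling cells. Genes named from the lists were 6 fixed ones (Pdzk1, Slc9a3r1, Pde5a, Slc12a2, Kcnq1, Slc26a3) and, per comparison, up to 5 highest and 5 lowest log2 fold changes among those called whose mean reached 10 CPM in the higher group. Likeness was Pearson's r of log2(CPM + 2) among genes with a mean of 20 CPM or more in a class, leaving out gene models without a name. The fits were tested on simulated data. Of simulated log2 changes of 1, 32% were recovered in enterocyte-marker, 26% in stem-marker and 46% in cycling cells, and 91% between villus groups. At a log2 change of 2 the shares were 81%, 80%, 86% and 97%. A gene that did not pass by region may therefore still differ. Of the genes simulated without a change, 20 were called in enterocyte-marker, 14 in stem-marker and 5 in cycling cells, and 14 between villus groups. Some genes that passed may therefore not differ. Intervals and floors (3 counts, 95%) cover counting error only; the replicates are 2 mice. The comparison of crypt levels (thinned counts) with the immune-marker cells of the same library (unthinned counts) was added after the data had been seen.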

Additional observations from a re-analysis of the deposited data

Results flagged for a closer look

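No group had 4 or more libraries, so single libraries that stand apart were not tested for. Of the list genes, 2 differed between regions in their change from the lower to the upper group by the interaction term in edgeR. Chp2 rose more in the ileum, by 0.74 ± 0.18 on the log2 scale (edgeR adjusted p = 0.019), from 34.1 to 70.2 CPM and from 24.9 to 44.7 CPM in the ileum and from 36.3 to 43.3 CPM and from 30.7 to 35.5 CPM in the jejunum (mouse 1 and mouse 2). Akap13, an anchoring protein of protein kinase A, had an interaction of 0.43 ± 0.09 (edgeR adjusted p = 0.0057), with 416 to 479 CPM and 373 to 486 CPM in the ileum and 329 to 294 CPM and 233 to 229 CPM in the jejunum. Neither passed by DESeq2 (adjusted p of 0.94 and 0.51) or without any 1 of the 4 libraries. Of all genes tested, 2.65% passed.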

How the results depend on the processing

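The count of fitted values of the 6 genes above 0 was 9 of 16 and stayed between 8 and 12 under every alternative run. This count hides changes of sign that offset each other. With another draw of the thinning, Cftr and Gucy2c in both crypt classes and Guca2b in cycling cells turned sign. The counts of genes that passed moved more. By region in enterocyte-marker cells it was 1589, and 3096 without the count filter, 3324 with the mouse as a replicate block and 72 to 1927 without each library in turn (72 without ileum mouse 1). In stem-marker cells it was 33, and 19 by DESeq2, 18 with cells under 10% mitochondrial UMIs, 103 without the filter, 107 with the replicate block, 82 with unthinned counts and 51 to 109 without each library. In cycling cells it was 92, and 38 by DESeq2, 195 without the filter, 224 with the replicate block, 175 with unthinned counts and 61 to 178 without each library. Between villus groups it was 1607, and 608 by DESeq2, 5210 with villus groups by ribosomal share and 643 to 1498 without each library. For the interaction it was 330, and 187 with 1 more marker per class, 36 by DESeq2, 109 with another draw of the thinning, 161 by ribosomal share, 498 with unthinned counts and 13 to 263 without each library. The cause was not tested. Between villus groups Guca2a turned to -0.31 by ribosomal share, and Gucy2c to -0.026 and Prkg2 to -0.021 with library totals, an alternative added after the data were seen. With 1 library left out, the lone library of a region is assumed to vary like the others. The block changed the calls named in the report and raised the counts above; it ended no call of a gene named there. At 1 to 5 UMIs per library, Slc9a3 in the crypt classes was at the limit of the depth.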

Other observations

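Enteroendocrine-marker cells numbered 76 (mouse 1) and 61 (mouse 2) in the ileum, against 60 and 44 in the jejunum. They held Gucy2c at 333 CPM (exact Poisson interval 274 to 400 CPM, in unthinned counts and for counting error only) and 356 CPM (284 to 440) in the ileum and at 269 CPM (206 to 346) and 218 CPM (163 to 286) in the jejunum. Guca2b in them lay between 185 and 200 CPM in the 4 libraries. Guca2a was 1051 CPM (945 to 1166) and 517 CPM (429 to 617) in the ileum, and 57.4 CPM (30.6 to 98.2) and 8.40 CPM (1.02 to 30.3) in the jejunum. The jejunal values overlap the intervals of the immune-marker cells of the same libraries (2.37 to 70.6 and up to 55.5 CPM). Goblet-marker cells were few, 51 and 13 ileal cells against 18 and 13 jejunal ones. They held Guca2a at 2196 CPM (2014 to 2389) and 2102 CPM (1751 to 2503) in the ileum, and the jejunal libraries differed from each other, with 1028 CPM (785 to 1324) and 235 CPM (129 to 395). These classes rest on marker counts alone, and doublets with enterocytes were not called.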
